A study of Mus musculus with 6 samples.

Results

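The genes described here are 10 enzymes of glycolysis, Hk2, Pfkm, Pfkl, Aldoa, Tpi1, Pgam1, Pgam2, Eno3, Pkm and Ldha, in mouse aortas. They were listed by name and found through the gene symbols of the array annotation, which assigns 18 of the 45101 probe sets to 1 of them, and they are 10 of the 18193 genes that have a probe set with a single symbol. The study compared aortas of untreated ApoE-/- mice, which lack apolipoprotein E and develop atherosclerotic plaques, vitamin E-treated ApoE-/- mice (the vitamin E group) and B6 control mice. Gene expression was measured on 6 Affymetrix MG430 2.0 arrays, 2 per group, each with the pooled RNA of 3 aortas. The vitamin E arrays bear sample numbers and a title format apart from those of the untreated ApoE-/- and B6 arrays. Any difference between these 2 sets of records cannot be told apart from the vitamin E treatment. All mice shared the C57BL/6J background and a chow with 7% fat and 0.15% cholesterol, and their aortas were taken at an age of 32 to 34 weeks. The treated mice had received vitamin E at 2000 IU per kg of diet for 7 months. The question put to these arrays was whether vitamin E, an antioxidant, moved the aortic transcripts of ApoE-/- mice. The authors call the 2 arrays of each group biological replicates, and p-values measure the spread between pools and not between single mice.

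Glycolysis splits glucose into pyruvate in the cytosol, and lactate dehydrogenase can turn pyruvate into lactate. Several of its steps are catalysed by isoforms that are encoded by separate genes and used by different tissues. Skeletal muscle uses Pfkm (muscle phosphofructokinase), Pgam2 (muscle phosphoglycerate mutase) and Eno3 (beta-enolase), whereas Pfkl (liver phosphofructokinase) and Pgam1 (brain-type phosphoglycerate mutase) are found in many other cells. Hk2 (hexokinase of insulin-responsive tissues, such as muscle and fat) traps glucose in the cell, and Aldoa, Tpi1, Pkm and Ldha are widely expressed. An aorta holds smooth muscle, endothelium and, in plaques, macrophages, all of which use glycolysis. In RNA of whole aortas, fewer cells of a type and less RNA per cell cannot be told apart.

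Signal intensity is the linear brightness of a probe set as scaled on each array by the authors, and only the level of 1 probe set is compared between groups, never that of 2 probe sets. The mean over an array was 305 to 319, and 35.8% to 37.3% of the probe sets reached a signal intensity of 100. Apoe had 57.4 to 93.2 in untreated ApoE-/- mice, 40.5 to 45.3 in the vitamin E group and 5209 to 5432 in B6 controls. The 2 arrays of the vitamin E group stood apart from each other for bright probe sets: over the 467 probe sets whose mean reached 5000, the median ratio of the second to the first array was 1.15, against 1.02 in untreated ApoE-/- and 1.01 in B6 controls. The contractile smooth muscle genes expected of an aorta were all detected, with 8 of 8 tested and Acta2 (smooth muscle actin) at 8791 to 11061. Marker genes of other tissues were detected too, and those of skeletal and cardiac muscle are given beside the results. Which cells these transcripts came from was not tested.

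The sequences upstream of 5 of the genes are shown because these genes changed between the vitamin E and untreated groups, 2 muscle isoforms upward and 3 other genes downward, and each has a single start site in RefSeq. They are the 250 bases before the start site, 5′ to 3′ on the strand of the gene, from RefSeq on assembly GRCm38.p6. Capitals mark matches to CANNTG (the E-box bound by myogenic factors and many others), ACGTG (the core of the hypoxia response element), GGGCGG (the GC box) and the binding motif of MEF2, each searched on both strands.
Pgam2 (chr11:5803797-5804046, minus strand): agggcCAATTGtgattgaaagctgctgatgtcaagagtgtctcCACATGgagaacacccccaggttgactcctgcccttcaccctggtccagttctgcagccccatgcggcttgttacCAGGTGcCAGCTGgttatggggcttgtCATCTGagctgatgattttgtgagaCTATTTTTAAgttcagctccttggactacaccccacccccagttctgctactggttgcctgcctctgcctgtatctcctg
Eno3 (chr11:70656926-70657175, plus strand): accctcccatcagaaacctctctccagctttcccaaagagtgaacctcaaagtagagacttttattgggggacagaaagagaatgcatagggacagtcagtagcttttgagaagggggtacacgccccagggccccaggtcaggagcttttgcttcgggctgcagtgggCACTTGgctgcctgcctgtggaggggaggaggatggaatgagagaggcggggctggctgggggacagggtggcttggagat
Pfkl (chr10:78009808-78010057, minus strand): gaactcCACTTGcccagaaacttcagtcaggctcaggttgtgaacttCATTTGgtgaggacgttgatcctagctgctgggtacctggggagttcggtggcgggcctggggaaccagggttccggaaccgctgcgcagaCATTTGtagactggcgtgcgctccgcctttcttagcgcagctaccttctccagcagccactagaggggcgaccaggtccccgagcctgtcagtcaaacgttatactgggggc
Pgam1 (chr19:41911621-41911870, plus strand): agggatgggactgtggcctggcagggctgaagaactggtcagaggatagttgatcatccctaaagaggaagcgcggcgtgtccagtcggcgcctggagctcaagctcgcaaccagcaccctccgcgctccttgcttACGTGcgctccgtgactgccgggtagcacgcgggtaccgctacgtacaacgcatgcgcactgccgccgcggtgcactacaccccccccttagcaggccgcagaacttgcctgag
Hk2 (chr6:82774455-82774704, minus strand): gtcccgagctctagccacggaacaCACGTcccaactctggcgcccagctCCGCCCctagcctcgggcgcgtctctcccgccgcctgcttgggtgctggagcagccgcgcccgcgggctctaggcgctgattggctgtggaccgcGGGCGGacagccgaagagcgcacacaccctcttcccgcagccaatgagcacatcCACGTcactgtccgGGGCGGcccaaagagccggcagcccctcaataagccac

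Pgam2 had 5 matches to CANNTG and 1 to the MEF2 motif, which starts 80 bases before the start site. Eno3 had 1 match to CANNTG at 81 bases before the start site, and Pfkl, which is no muscle isoform, had 3. Pgam1 had 1 match to ACGTG, and Hk2 had 2 to ACGTG and 3 to GGGCGG. A match to ACGTG can also be part of one to CANNTG, but none of the 5 windows showed this overlap. Of all 32851 such windows in RefSeq, 66.2% held CANNTG, 16.6% ACGTG, 32.7% GGGCGG and 2.92% the MEF2 motif, so that a match to CANNTG was more common than its absence. The GC content was 53.2% for Pgam2, 57.2% for Eno3, 59.2% for Pfkl, 64.0% for Pgam1 and 69.6% for Hk2, beside a median of 52.4% over all windows. A match is a description of the sequence and no evidence of binding. The remaining members are not printed because they have several start sites or, for Tpi1, because its brightest probe set was not called.

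The isoforms of glycolysis differed in opposite directions between the ApoE-/- groups. In the vitamin E group relative to untreated ApoE-/- mice, the muscle genes Pfkm, Pgam2 and Eno3 were 1.28-fold to 1.33-fold higher, and Hk2, Pfkl and Pgam1 were 1.27-fold to 1.61-fold lower. This makes 6 of 10 members past an adjusted p under 0.05 from limma, where each gene is represented by its brightest probe set. Over all 10646 genes tested in the same way, 15.8% were called (8.18% higher and 7.65% lower), and 15.5% of the 17909 probe sets tested. All members are bright, and 22.6% of the 2907 probe sets whose mean signal intensity reached 1000 were called. The median log2 fold change of the members was -0.02, close to that of all probe sets tested (0.00348).

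Between untreated ApoE-/- mice and B6 controls, 5 of 10 members were called, against 41.9% of all genes, a similar share. Hk2, Pfkl, Pgam1 and Pkm were higher in untreated ApoE-/- mice (4 members, with 21.2% of all genes higher), and Eno3 was lower (20.8% of all genes lower). The largest difference was that of Pfkl at 2.33-fold. The median log2 fold change was 0.10 over the members and 0.03 over all probe sets tested.

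The vitamin E group still differed from B6 controls in 4 of 10 members, Pfkm, Pfkl, Pgam2 and Pkm. All 4 were higher and 0 lower, where 42.8% of all genes were called, 21.1% higher and 21.7% lower. The median log2 fold change was 0.13 over the members and 0.02 over all probe sets tested. The 3 comparisons share arrays, so they are not independent of each other. Centring each array on its median changed the split of the calls, and the share that was higher went from 55.0% to 33.8% between the ApoE-/- groups, from 53.1% to 43.2% in untreated ApoE-/- mice against B6 controls and from 53.3% to 31.4% in the vitamin E group against B6 controls. In the methods' t-test, at a p of at most 0.01 and at least a 2-fold difference, the calls among the members were 1 (Pfkl) in untreated ApoE-/- mice against B6 controls and 0 in the other comparisons.

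**Figure D1:**
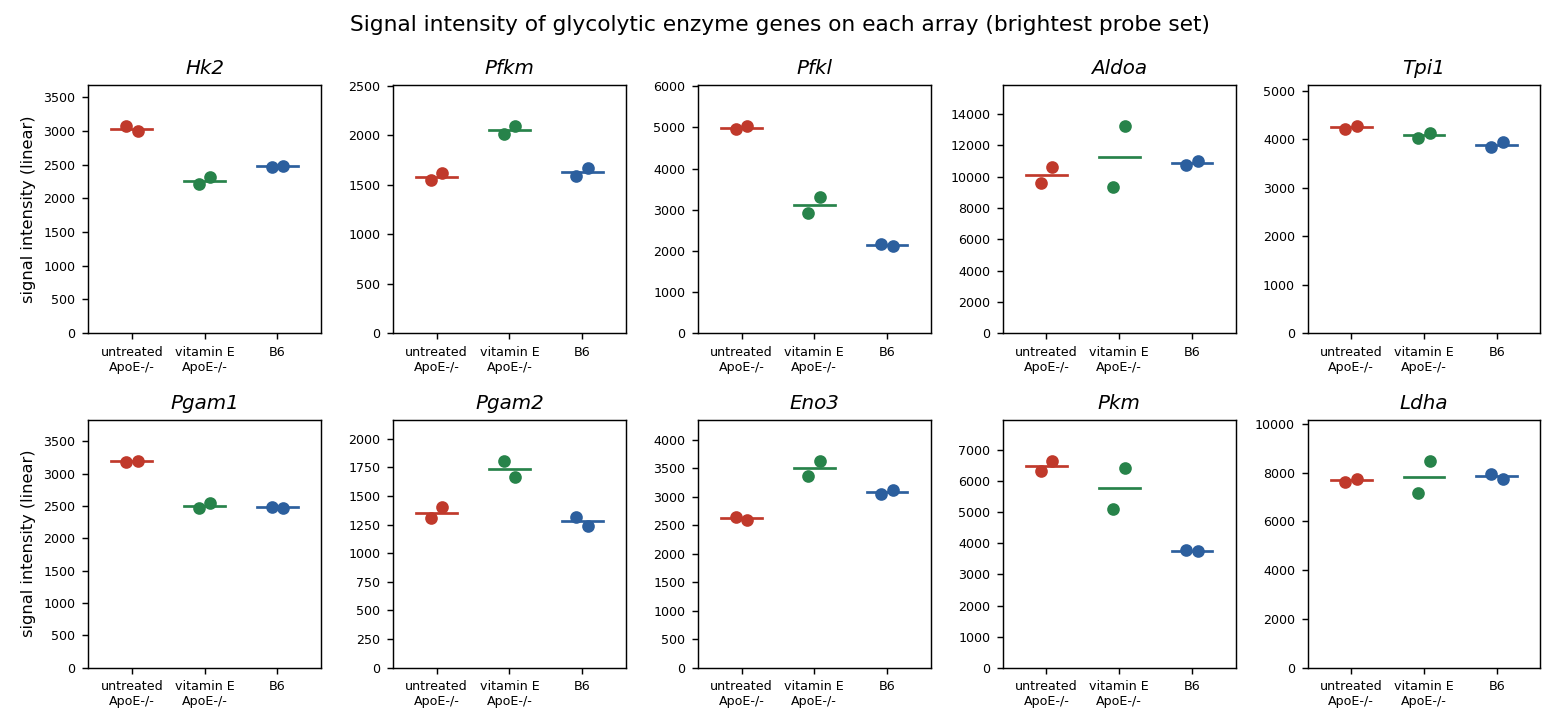
Signal intensity (linear, y axis from 0) of the brightest probe set of each of the 10 genes on every array. Points are arrays and horizontal lines are group means of 2 arrays (red untreated ApoE-/-, green vitamin E group, blue B6 controls). Hk2, Pfkl and Pgam1 are highest in untreated ApoE-/- mice, Pfkm, Pgam2 and Eno3 are highest in the vitamin E group, and the 2 vitamin E arrays lie far apart for Aldoa, at 9346 and 13229.

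Hk2 catalyses the first step, the phosphorylation of glucose. Its signal intensity was 3069 and 2999 in untreated ApoE-/- mice, 2207 and 2319 in the vitamin E group, and 2472 and 2478 in B6 controls, so the untreated arrays were the highest and no groups overlapped. It was higher in untreated ApoE-/- mice (3034 ± 49.7, SD, n = 2) than in B6 controls (2475 ± 4.12), with a log2 fold change of 0.29 (SE, its standard error, 0.06, limma adjusted p = 0.0071). The vitamin E group (2263 ± 78.7) was 1.34-fold lower than untreated mice (log2 fold change -0.42, adjusted p = 0.00482). Their difference from B6 controls did not pass the test (-0.13, 95% confidence interval -0.27 to 0.01, adjusted p = 0.123), except with median centring of the arrays, where Hk2 was lower (-0.28, adjusted p = 0.016), and without the second vitamin E array (-0.16, adjusted p = 0.031).

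Phosphofructokinase catalyses the committed step of glycolysis, and its muscle and liver genes moved apart. Pfkm had 1543 and 1616 in untreated ApoE-/- mice, 2012 and 2090 in the vitamin E group, and 1591 and 1670 in B6 controls. The vitamin E arrays lay above all others, whereas untreated ApoE-/- and B6 arrays overlapped. Pfkm was 1.30-fold higher in the vitamin E group than in untreated ApoE-/- mice (log2 fold change 0.38, SE 0.06, limma adjusted p = 0.00923) and 1.26-fold higher than in B6 controls (adjusted p = 0.00533). Between untreated ApoE-/- mice and B6 controls the log2 fold change was -0.05, with a 95% confidence interval of -0.19 to 0.10. Without a filter on low values the call between the ApoE-/- groups was lost (adjusted p = 0.055). The difference from B6 controls did not pass with median centring (0.18, adjusted p = 0.077) or without the first B6 array (0.30, adjusted p = 0.053).

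Pfkl showed the largest differences of the members between untreated ApoE-/- mice and each other group. Its brightest probe set (1439148_a_at) had 4963 and 5027 in untreated ApoE-/- mice, 2929 and 3301 in the vitamin E group, and 2166 and 2127 in B6 controls. The other probe set (1450269_a_at) had 2301 and 2293 without treatment, 1290 and 1398 with vitamin E, and 684 and 647 in B6 controls. No groups overlapped in either probe set, and the vitamin E arrays lay between untreated ApoE-/- and B6 arrays in both. In untreated ApoE-/- mice relative to B6 controls Pfkl was 2.33-fold higher with the brightest probe set (adjusted p = 3.1e-05) and 3.45-fold higher with the other (adjusted p = 3.9e-06). The vitamin E group was lower than untreated ApoE-/- mice by 1.61-fold and 1.71-fold (adjusted p = 0.00149 and 0.0006) and higher than B6 controls by 1.45-fold and 2.02-fold (adjusted p = 0.0013 and 5.6e-05). These calls held under every limma alternative and with each array left out. A further Pfkl probe set (1453541_at) had 18.2 to 32.8 and was not tested.

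Aldoa (aldolase, which cleaves the phosphorylated hexose) and Tpi1 (triose phosphate isomerase, which interconverts the products) showed small differences that depended on the probe set. The 5 Aldoa probe sets all carry the suffix of probe sets that may detect related transcripts. The brightest (1434799_x_at) had 9617 and 10656 in untreated ApoE-/- mice, 9346 and 13229 in the vitamin E group, and 10778 and 11028 in B6 controls, and it was called in no comparison. With 1 of the vitamin E arrays left out, however, it was called on either side of B6 controls, at a log2 fold change of 0.28 without the first array (adjusted p = 0.013) and -0.22 without the second (adjusted p = 0.030). The vitamin E and untreated groups also differed without the first vitamin E array (0.39, adjusted p = 0.009). Of the others, 1433604_x_at (log2 fold change 0.22, adjusted p = 0.0364) and 1447734_x_at (0.29, adjusted p = 0.0393) were higher in untreated ApoE-/- mice than in B6 controls, and no Aldoa probe set was called in the comparisons with the vitamin E group. Both of these calls were lost without any 1 of the untreated ApoE-/- or B6 arrays (adjusted p from 0.096 to 0.205), with median centring (0.168 and 0.085), without a filter (0.091 and 0.219) and without the intensity trend (0.073 and 0.087), and both were higher in the vitamin E group than in B6 controls without the first vitamin E array (adjusted p = 0.010 and 0.005). The probe set 1416921_x_at was called in each of the 3 comparisons when 1 of the vitamin E arrays was left out (adjusted p from 0.017 to 0.047).

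Tpi1 had 4218 and 4265 in untreated ApoE-/- mice, 4018 and 4133 in the vitamin E group, and 3832 and 3934 in B6 controls with its brightest probe set (1452927_x_at), which was called in no comparison (log2 fold change 0.13 between untreated ApoE-/- mice and B6 controls, 95% confidence interval -0.01 to 0.27). It passed in that comparison without either vitamin E array (adjusted p = 0.024) and with quantile normalization (0.15, adjusted p = 0.036). The brightest Tpi1 probe set carries the same suffix as those of Aldoa, and its others do not. Those others were called between untreated ApoE-/- mice and B6 controls, 1415918_a_at with 0.47 (adjusted p = 0.00128) and 1435659_a_at with 0.26 (adjusted p = 0.0262). The first of these had 4392 and 4165 in untreated ApoE-/- mice, 3885 and 3687 in the vitamin E group, and 3093 and 3099 in B6 controls, and the vitamin E group was 1.22-fold higher than B6 controls (adjusted p = 0.0102). The groups kept the same order in all 3 Tpi1 probe sets, highest in untreated ApoE-/- and lowest in B6 controls by their means. The call of 1435659_a_at was lost without any 1 array of these 2 groups (adjusted p from 0.068 to 0.176), with median centring (0.19, adjusted p = 0.120), without a filter (adjusted p = 0.122) and without the intensity trend (adjusted p = 0.070). The vitamin E group's call of 1415918_a_at against B6 controls was lost without either B6 array (adjusted p = 0.077 and 0.075) and with median centring, where the log2 fold change fell from 0.29 to 0.14 (adjusted p = 0.210). With the first vitamin E array left out, 1415918_a_at was lower in the vitamin E group than in untreated ApoE-/- mice (-0.21, adjusted p = 0.028), and with the second left out, 1435659_a_at was higher than in B6 controls (adjusted p = 0.041).

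Phosphoglycerate mutase moves the phosphate of phosphoglycerate before the enolase step, and its 2 genes also moved apart. Pgam1 had 3183 and 3196 in untreated ApoE-/- mice, 2469 and 2543 in the vitamin E group, and 2490 and 2475 in B6 controls. Vitamin E and B6 arrays overlapped below the untreated ApoE-/- arrays. Pgam1 was 1.28-fold higher in untreated ApoE-/- mice than in B6 controls (log2 fold change 0.36, SE 0.06, limma adjusted p = 0.00247) and 1.27-fold lower in the vitamin E group than in untreated ApoE-/- mice (-0.35, adjusted p = 0.00919). Between the vitamin E group and B6 controls the log2 fold change was 0.01, with a 95% confidence interval of -0.12 to 0.15.

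Pgam2 had 1304 and 1402 in untreated ApoE-/- mice, 1804 and 1663 in the vitamin E group, and 1318 and 1241 in B6 controls. Here the vitamin E arrays were above all others, and untreated ApoE-/- and B6 arrays overlapped. Pgam2 was 1.28-fold higher in the vitamin E group than in untreated ApoE-/- mice (log2 fold change 0.36, limma adjusted p = 0.0189) and 1.35-fold higher than in B6 controls (0.44, adjusted p = 0.00309). The former call was the least firm of the 6, and it was lost with median centring (0.27, adjusted p = 0.060), without an intensity trend in the moderation (adjusted p = 0.059) and without a filter (adjusted p = 0.121). Between untreated ApoE-/- mice and B6 controls the log2 fold change was 0.08, with a 95% confidence interval of -0.09 to 0.25.

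Of Pfkm, Pgam2 and Eno3, only Eno3, the muscle enolase, was called between untreated ApoE-/- mice and B6 controls. It had 2639 and 2596 in untreated ApoE-/- mice, 3364 and 3623 in the vitamin E group, and 3049 and 3110 in B6 controls, so that no groups overlapped and B6 arrays lay in the middle. Untreated ApoE-/- mice were lower than B6 controls by a log2 fold change of -0.23 (limma adjusted p = 0.0233), and the vitamin E group was 1.33-fold higher than untreated mice (0.42, adjusted p = 0.00678). The former call was lost without a filter on low values and without an intensity trend in the moderation (adjusted p = 0.068 in each), and the latter without a filter (adjusted p = 0.053). The difference of vitamin E-treated from B6 controls was 0.18 and did not pass (adjusted p = 0.057), but passed with quantile normalization (0.25, adjusted p = 0.009), with 1 probe set per gene in the fit (adjusted p = 0.046) and without the first vitamin E array (0.23, adjusted p = 0.008).

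Pkm (pyruvate kinase of muscle and most other tissues) forms pyruvate, and Ldha (the A subunit of lactate dehydrogenase) reduces it to lactate. Pkm had 6339 and 6646 in untreated ApoE-/- mice, 5120 and 6430 in the vitamin E group, and 3777 and 3749 in B6 controls. All ApoE-/- arrays were above the B6 arrays, by 1.73-fold in untreated (log2 fold change 0.79, SE 0.11, limma adjusted p = 0.00115) and 1.52-fold in the vitamin E group (0.61, adjusted p = 0.00368, lost without a filter at 0.079). Vitamin E and untreated arrays overlapped (-0.18, 95% confidence interval -0.43 to 0.07), and without the second vitamin E array the difference was -0.34 (adjusted p = 0.006). Whether the probe set separates the splice forms of Pkm was not examined here.

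Ldha had 7613 and 7752 in untreated ApoE-/- mice, 7170 and 8476 in the vitamin E group, and 7964 and 7752 in B6 controls, and passed in no comparison. The 95% confidence intervals of its log2 fold changes were -0.25 to 0.18 between untreated ApoE-/- and B6 and -0.19 to 0.23 between the vitamin E and untreated groups. As in Aldoa, the 2 vitamin E arrays lay on either side of the others, and Ldha was called against B6 controls without the second of them (-0.13, adjusted p = 0.038) and against untreated ApoE-/- mice without the first (0.14, adjusted p = 0.0499).

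**Figure D2:**
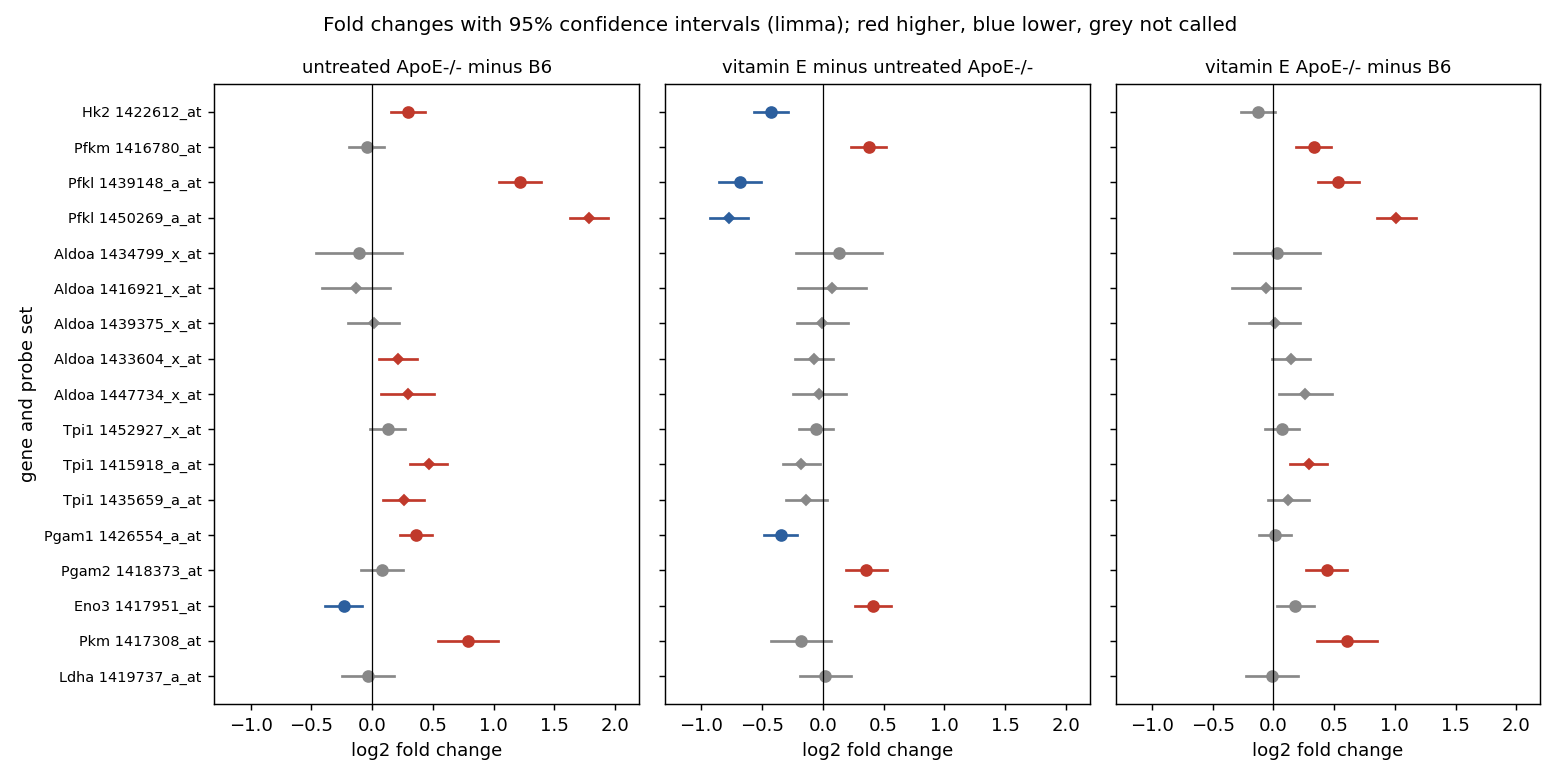
Log2 fold change (x axis) of each of the 17 tested probe sets of the 10 genes in the 3 comparisons, with 95% confidence intervals from limma. Large circles are the brightest probe set of a gene and small diamonds its others, red was called higher, blue lower and grey neither. A probe set of Pfkl is the farthest from 0 in each comparison, and its values go from 1.22 and 1.79 in untreated ApoE-/- minus B6 to -0.68 and -0.77 in vitamin E minus untreated.

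Single arrays decided several of these calls. Between the ApoE-/- groups, leaving out the first untreated ApoE-/- array left 1 member called (Pfkl), and leaving out the second left 2 (Hk2 and Pfkl). The adjusted p of the members that were lost was then 0.058 to 0.131, with the same sign of the log2 fold change, which is a comparison with a single untreated array. Over all probe sets tested, calls also became fewer without either untreated ApoE-/- array. The counts of members left therefore cannot be read as a result about the members. In untreated ApoE-/- mice against B6 controls, Pfkl, Pgam1 and Pkm stayed called whichever array was left out. Hk2 (adjusted p from 0.056 to 0.065) was lost without the first untreated ApoE-/- array or either B6 array, and Eno3 (0.104 to 0.143) without any 1 array of these 2 groups.

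The ratio of 2 isoforms on the same array does not depend on how that array was scaled. The log2 ratio of Pfkm to Pfkl, relative to the mean of the B6 arrays, was -1.29 and -1.24 on the untreated ApoE-/- arrays, -0.15 and -0.26 on the vitamin E arrays, and -0.05 and 0.05 on the B6 arrays. For Pgam2 to Pgam1 these values were -0.33 and -0.23, 0.50 and 0.34, and -0.04 and 0.04. Both ratios, muscle over non-muscle gene, were thus lowest in untreated ApoE-/- mice, and the vitamin E group was higher than untreated mice by 1.06 (Pfkm to Pfkl) and 0.71 (Pgam2 to Pgam1). The Pfkm to Pfkl ratio of the vitamin E group stayed below that of B6 controls by a log2 difference of -0.20 (-0.68 with the other Pfkl probe set), and the Pgam2 to Pgam1 ratio was above it by 0.42.

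Hk2 was also set against Hk1, the hexokinase of most tissues, Aldoa against Aldoc, the aldolase of brain, and Ldha against Ldhb, the subunit that prevails in heart. The Hk2 to Hk1 ratio was -0.50 on both untreated ApoE-/- arrays, -0.90 and -0.83 on the vitamin E arrays and -0.03 to 0.03 on the B6 arrays, so it lay below B6 controls in both ApoE-/- groups although Hk2 itself was highest in untreated ones. With another Hk1 probe set (1420901_a_at) the differences from B6 controls were -1.02 in untreated ApoE-/- mice and -1.37 in the vitamin E group. Hk1 itself was at 1335 to 1414 on all ApoE-/- arrays and at 788 and 819 in B6 controls. The Aldoa to Aldoc ratio was higher in untreated ApoE-/- mice than in B6 controls by 1.25, while Aldoc itself was 171 and 192, 271 and 323, and 463 and 465 in untreated ApoE-/- mice, the vitamin E group and B6 controls. The Ldha to Ldhb ratio was higher in the vitamin E group than in untreated ApoE-/- mice by 0.24 with the brightest Ldhb probe set and by 0.32 to 0.47 with the other 3, of which 1448237_x_at and 1455235_x_at were themselves lower with vitamin E (limma adjusted p = 0.019 and 0.020). Its difference of -0.08 between untreated ApoE-/- mice and B6 controls came to -0.01 with quantile normalization. In all 5 pairs no groups overlapped in any comparison. How often groups fail to overlap in other gene pairs was not counted, so this cannot be read as a result about these pairs. With 2 arrays against 2 the exact two-sided permutation test gives 0.333 at the least, so no ratio can pass it. Of the 6 pairs planned, Eno3 to Eno1 was not formed because the annotation used gives no probe set for Eno1 alone.

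**Figure D3:**
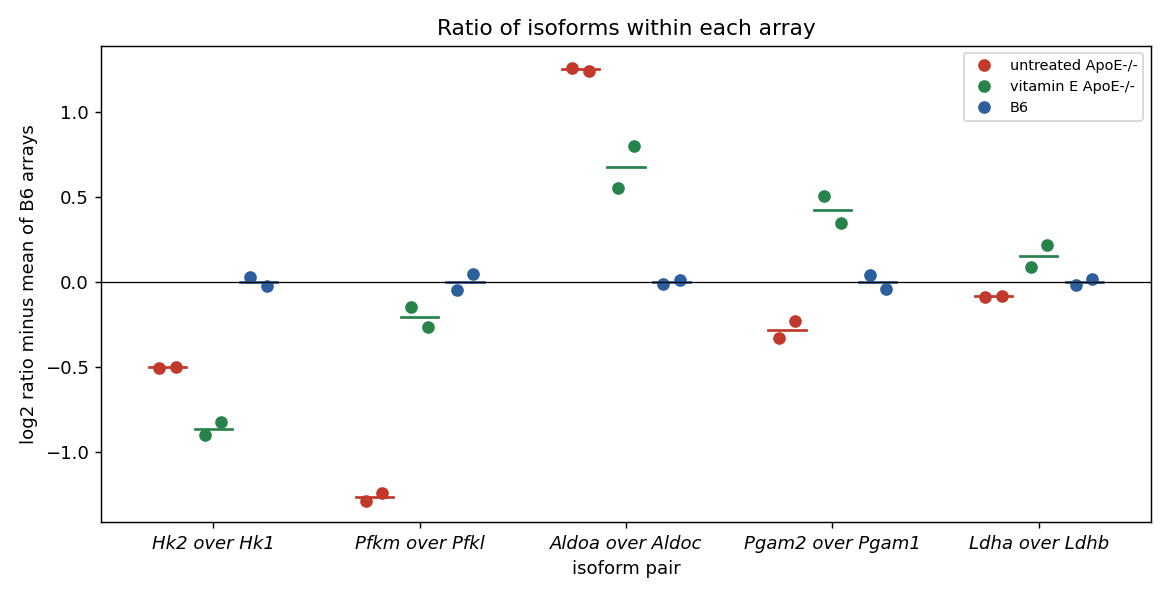
Log2 ratio of 2 isoform genes within an array, minus the mean of the B6 arrays (y axis), for 5 pairs. Points are arrays and lines are group means of 2 arrays. Untreated ApoE-/- mice (red) are lowest for Pfkm over Pfkl, near -1.26, and highest for Aldoa over Aldoc, near 1.25, while for Pgam2 over Pgam1 the vitamin E group (green) is the highest.

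Skeletal muscle markers moved together with Pfkm, Pgam2 and Eno3 between the ApoE-/- groups. Hk2 was lower with vitamin E than without (log2 fold change -0.42), and Aldoa and Ldha were not called. Of all genes tested, 41.9% were called in untreated ApoE-/- mice against B6 controls. The share was 15.8% between the ApoE-/- groups and 42.8% in the vitamin E group against B6 controls. Of 21 skeletal muscle genes tested, 18 were lower and 0 higher in untreated ApoE-/- mice than in B6 controls (median log2 fold change -0.96), and 21 of 21 were higher in the vitamin E group than in untreated ApoE-/- mice (median 1.43). Relative to B6 controls, 11 were higher and 0 lower in the vitamin E group. Their summed signal intensity was 39007 to 39192 in untreated ApoE-/- mice, 78638 to 90316 in the vitamin E group and 68505 to 69648 in B6 controls. Myh2 (a fast skeletal myosin) had 403 and 349, 2105 and 1977, and 2153 and 2210 in that order, and Acta1 (skeletal actin) 7245 and 7351, 9730 and 13264, and 10929 and 11135. No skeletal muscle marker was under a signal intensity of 20 on every array. Eno3 kept the order that the groups had in the summed level of these markers, whereas Pfkm and Pgam2 showed no call between untreated ApoE-/- mice and B6 controls.

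Cardiac muscle markers moved the other way. All 14 were higher in untreated ApoE-/- mice than in B6 controls (median log2 fold change 1.23), and 13 were lower in the vitamin E group than in untreated ApoE-/- mice (median -0.95). Relative to B6 controls, the vitamin E group had 8 higher and 1 lower. Their summed signal intensity was 67102 to 67209 in untreated ApoE-/- mice, 37259 to 40811 in the vitamin E group and 35647 to 35894 in B6 controls. Myh6 (atrial and adult ventricular myosin) had 9003 and 9383, 5728 and 5847, and 6043 and 6542, and Corin (a protease of the heart) 431 and 452, 183 and 156, and 83.3 and 118 in that order. No cardiac muscle marker was under 20 on every array. Pfkl, Hk2 and Pgam1 were, like these markers, highest in untreated ApoE-/- mice. The part of skeletal and of cardiac muscle RNA in the changes of the members was not tested.

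Other markers moved with some members. Beside the counts below, 41.9% of all genes tested were called in untreated ApoE-/- mice against B6 controls. The share was 15.8% between the ApoE-/- groups and 42.8% in the vitamin E group against B6 controls. Of 8 macrophage genes tested, 6 were higher in untreated ApoE-/- mice than in B6 controls, 6 in the vitamin E group than in B6 controls, and 0 differed between the ApoE-/- groups at an adjusted p under 0.05. This is the pattern of calls that Pkm had, and the summed signal intensity of the 10 macrophage genes with a probe set was 16795 to 16954, 15383 to 15964 and 11430 to 11577 in untreated ApoE-/- mice, the vitamin E group and B6 controls. All 11 liver genes were lower in both ApoE-/- groups than in B6 controls, with sums of 1565 to 1592, 2689 to 2856 and 24651 to 24685. Of the contractile smooth muscle genes, 1 was higher and 1 lower in untreated ApoE-/- mice than in B6 controls, 3 were lower with vitamin E than without, and 4 lower with vitamin E than in B6 controls. The part of these cells in the results was not tested. The 3′ to 5′ ratio of the Gapdh control probe sets, a measure of RNA quality, was 1.03 and 1.06 in untreated ApoE-/- mice, 1.15 and 1.24 in the vitamin E group, and 1.35 and 1.34 in B6 controls, and its part was not tested either.

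**Figure D4:**
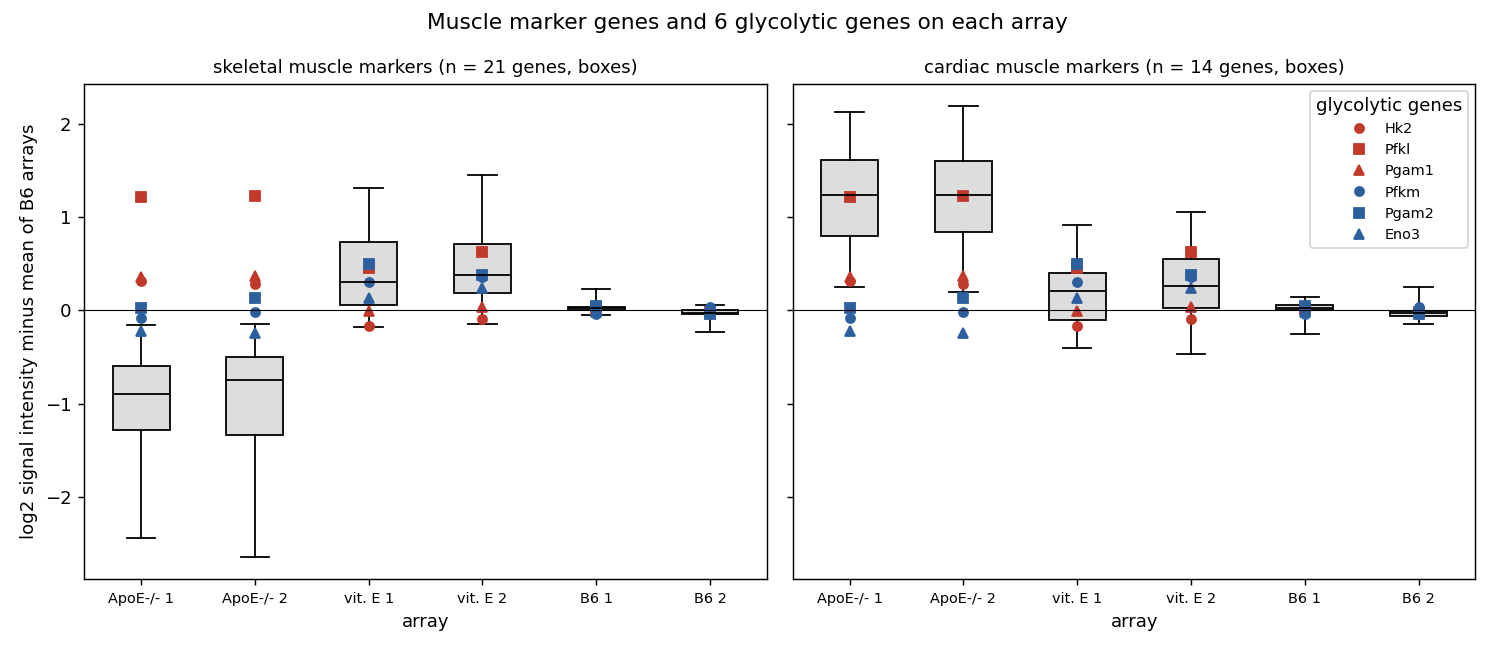
Log2 signal intensity minus the mean of the B6 arrays (y axis) on each of the 6 arrays. Boxes hold 21 skeletal muscle markers (left) or 14 cardiac muscle markers (right), with quartiles, the median line and whiskers to the lowest and highest gene, and symbols are the same 6 glycolytic genes in both panels (red called lower and blue called higher with vitamin E). In untreated ApoE-/- mice the skeletal markers lie below 0 and the cardiac ones above it, with Pfkl near 1.22 within the box of cardiac markers.

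The rest of the pathway was covered less well by the annotation. Of 19 other glycolytic enzymes, 14 had a probe set with a single symbol and 8 were tested. By their brightest probe sets, Hk1 and Pgk1 (phosphoglycerate kinase) were higher and Eno2 (neuronal enolase) and Aldoc lower in untreated ApoE-/- mice than in B6 controls. The Pgk1 probe sets disagreed in this comparison. The brightest was higher (log2 fold change 0.37, limma adjusted p = 0.0042), another was lower (-0.44, adjusted p = 0.037) and another was not called (0.07, adjusted p = 0.47). For Bpgm, also on this list, the brightest probe set was not called (-0.11), but another was higher (0.42, adjusted p = 0.040). Aldoc was higher and Pfkp (platelet phosphofructokinase) lower in the vitamin E group than in untreated ApoE-/- mice, so that Pfkp fell with Pfkl while Pfkm rose. The log2 fold changes in this comparison were 0.71 for Aldoc (adjusted p = 0.0088) and -0.22 for Pfkp (adjusted p = 0.044). Against B6 controls, the vitamin E group had 2 higher (Hk1 and Pgk1) and 3 lower (Pfkp, Eno2 and Aldoc), again by the brightest probe sets. That of Pgk1 was at 0.22 (adjusted p = 0.031), whereas its others were at -0.38 and -0.02 and were not called. The brightest probe set of Bpgm was not called here either (0.17), but its others were higher (0.59 and 0.68, adjusted p = 0.029 and 0.0058). The Gapdh control probe sets at the 3′ end and in the middle of the transcript ranged from 8580 to 10988 over the 6 arrays, with overlapping vitamin E and B6 arrays. At the 3′ end the untreated ApoE-/- arrays lay below the B6 arrays. The 5′ probe set had 8547 and 8800 in untreated ApoE-/- mice, 7489 and 8862 in the vitamin E group, and 7173 and 7182 in B6 controls. There both ApoE-/- groups lay above B6 controls. None of these control probe sets was tested.

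Among 16 regulators and transporters of glucose and lactate tested, 3 were higher and 4 lower in untreated ApoE-/- mice than in B6 controls. In the vitamin E group, 2 were higher and 2 lower than in untreated ApoE-/- mice, and 2 higher and 5 lower than in B6 controls. Over all genes tested, 41.9%, 15.8% and 42.8% were called in these 3 comparisons, in this order. Slc2a3, a glucose transporter of neurons and white blood cells, had 448 and 442 in untreated ApoE-/- mice, 539 and 583 in the vitamin E group, and 748 and 833 in B6 controls. Slc16a7, a transporter of lactate and pyruvate, was 2.23-fold lower in untreated ApoE-/- mice than in B6 controls (adjusted p = 0.0015). Slc2a4, the insulin-responsive glucose transporter of muscle and fat, was chosen after its values were seen. It had 2699 and 3100, 1733 and 1809, and 1591 and 1697 in untreated ApoE-/- mice, the vitamin E group and B6 controls, and like Hk2 it was highest in untreated ApoE-/- mice (log2 fold change 0.82 against B6, adjusted p = 0.000288, and -0.71 with vitamin E, adjusted p = 0.00205).

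Glycogen supplies glycolysis with hexose phosphate in muscle. Of 15 genes of glycogen metabolism tested, 2 were higher and 5 lower in untreated ApoE-/- mice than in B6 controls (41.9% of all genes called). In the vitamin E group, 2 were higher and 5 lower than in untreated ApoE-/- mice (15.8% of all genes called). Relative to B6 controls, 2 were higher and 8 lower in the vitamin E group (42.8% of all genes called). The 2 that were higher with vitamin E than without, Pygm and Phka1, were also the 2 that were higher than in B6 controls. Both are muscle isoforms, but Gys1, Phkg1 and Ppp1r3a, other muscle genes of this list, were not among the genes called higher. Pygm (muscle glycogen phosphorylase, named after its values were seen) had 1038 and 923 in untreated ApoE-/- mice, 1759 and 1908 in the vitamin E group, and 1053 and 1010 in B6 controls. Its vitamin E arrays lay above all others, as in Pfkm and Pgam2, at 1.87-fold over untreated ApoE-/- mice (log2 fold change 0.90, adjusted p = 0.000635). Phka1 (the muscle subunit of phosphorylase kinase, named likewise) was 1.56-fold higher with vitamin E than without (adjusted p = 0.0142). The isoforms Pygl (liver) and Pygb (brain) were lower with vitamin E than without, by log2 fold changes of -0.68 (adjusted p = 0.013) and -0.51 (adjusted p = 0.0039).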

How the data were processed

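Aortic RNA of 6 pools was hybridised to 6 arrays. The authors computed signal intensities with GCOS (Affymetrix) and scaled each array, and the deposited values are linear, with a single value per probe set. Of 45101 probe sets, 64 are array controls, 34945 carry 1 symbol in the annotation, 932 several and 9160 none. RefSeq held the symbol of 34754. Each of the 18 member probe sets carries 1 symbol, and 17 were tested.

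Values below 20 were raised to 20 before taking log2. Tested were 17909 probe sets whose group mean reached 100 in any group. Group means were fitted to the 6 arrays by limma 3.58.1 (R 4.3.3), with a variance prior that follows the intensity (residual degrees of freedom 3, prior 4.46). P values were adjusted over all probe sets tested (Benjamini-Hochberg), and a probe set with an adjusted p under 0.05 was called. Means and SDs refer to linear values. The brightest probe set with 1 symbol stood for a gene. Named are all members, of every list up to 4 genes (2 by mean brightness, 2 by the size of their difference between untreated ApoE-/- mice and B6 controls), and the 5 genes nearest to Pgam2 and to Eno3. The members and lists were chosen with earlier results of these data known. The number of arrays limits precision. Present calls were not used here. The fit was tested on simulated data.

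Alternatives were other normalizations (quantile, median centring), floors (50, none) and filters (none, mean over the 6 arrays), limma without the trend or on the compared groups alone, a replicate block, fewer or other probe sets per gene, the loss of each array, and the methods' t-test.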

Additional observations from a re-analysis of the deposited data

How the results depend on the processing

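Of 897 values of a member probe set under an alternative, 747 kept their direction and side of the threshold, 31 passed it neither before nor after but changed sign, 91 lost a call, 27 gained one and 1 gained one in the opposite direction, Aldoa (1434799_x_at) in the vitamin E group against B6 controls, which ranged from -0.22 to 0.28 with arrays left out and was lowest without the second vitamin E array. Leaving out arrays gave 3 to 6 members called in untreated ApoE-/- mice against B6 controls, 1 to 8 between the ApoE-/- groups, and 3 to 7 in the vitamin E group against B6 controls. Without a filter, 3 members were called between the ApoE-/- groups (Pfkm, Pgam2 and Eno3 were lost). With all member probe sets counted, 10 of 17 were called in untreated ApoE-/- mice against B6 controls. In that comparison 40.8% of all probe sets tested were called, and 47.3% of those whose mean signal intensity reached 1000. The methods' t-test called 1, 0 and 0 members in the 3 comparisons in this order, on log2 as on linear values. At an unadjusted p under 0.05 it had 6, 6 and 3 members on either scale. The share of all probe sets in the t-test at this threshold was not counted, so these numbers cannot be read as a result about the members. In limma, 9001, 5660 and 9000 of the 17909 probe sets had an unadjusted p under 0.05.

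Over all probe sets the counts called were 7305, 2777 and 7368. They were 4494, 949 and 4464 without a filter, 4610, 1830 and 4754 with 1 probe set per gene (fewer features tested), 1700 between the ApoE-/- groups with a fit of those alone, and 768, 179 and 582 by the methods' t-test on log2 (772, 176 and 585 on linear) values. After Benjamini-Hochberg the t-test called 2156, 0 and 67 on log2 and 2166, 0 and 76 on linear values. Leaving out arrays gave 4326 to 8777, 817 to 3506 and 4332 to 7470. Median centring moved the median of all probe sets by -0.07, -0.08 and -0.15 and the share of higher among called ones from 53.1% to 43.2%, 55.0% to 33.8% and 53.3% to 31.4%. With the replicate number as a block, the members called were 5, 6 and 4, as without it, and the probe sets 6887, 2185 and 6991. Arrays of the same number deviated together little (correlations 0.05, 0.05 and -0.10), so they share only a number. The block changed the call of no other member probe set than Aldoa 1433604_x_at (0.22 in untreated ApoE-/- mice against B6 controls, lost) and 1447734_x_at (0.26 in the vitamin E group against B6 controls, gained).

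Several isoform ratios moved by more than the spread between arrays. Hk2 to Hk1, relative to B6 controls, was -1.02 (untreated ApoE-/-) and -1.37 (vitamin E group) with the other Hk1 probe set and -0.46 and -0.82 with quantile normalization. Pfkm to Pfkl was -1.83, 1.15 and -0.68 in the 3 comparisons with the other Pfkl probe set. Aldoa to Aldoc was 1.58, -0.78 and 0.80 with 1433604_x_at, 1.65, -0.74 and 0.91 with 1447734_x_at, and, in the first 2 comparisons, 1.37 and -0.71 with 1439375_x_at and 1.46 and -0.75 with quantile normalization. Ldha to Ldhb was -0.20, -0.24 and -0.15 with the other Ldhb probe sets in the first comparison, 0.32, 0.47 and 0.44 in the next, and 0.23 and 0.29 with 2 of them in the last, and -0.010 and 0.12 with quantile normalization in the first 2. Leaving out arrays gave, between the ApoE-/- groups and between the vitamin E group and B6 controls, -0.70 to -0.45 and 0.55 to 0.80 for Aldoa to Aldoc and 0.17 to 0.30 and 0.088 to 0.22 for Ldha to Ldhb.

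The cause of these changes was not tested. With 2 arrays per group, a difference of a bright gene such as Aldoa, Pkm or Ldha between the vitamin E arrays is as large as many of the differences between groups.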

Other observations

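Gluconeogenesis, which reverses glycolysis in liver and kidney, was represented by 5 tested genes. In untreated ApoE-/- mice relative to B6 controls 0 were higher and 3 lower at an adjusted p under 0.05 from limma (41.9% of all genes called). In the vitamin E group relative to untreated ApoE-/- mice 2 were higher and 1 lower (15.8% of all genes called). In the vitamin E group relative to B6 controls 0 were higher and 4 lower (42.8% of all genes called). Fbp1 (fructose bisphosphatase of liver) had 76.2 and 63.9 in untreated ApoE-/- mice, 129 and 118 in the vitamin E group, and 492 and 489 in B6 controls. Pck1 (phosphoenolpyruvate carboxykinase of liver, kidney and fat) had 2027 and 1967 in untreated ApoE-/- mice, 3933 and 3489 in the vitamin E group, and 4995 and 5035 in B6 controls. Both followed the order of the liver markers, and the part of liver RNA in them was not tested.

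Of 10 hypoxia-responsive genes outside glycolysis that were tested, 1 was higher and 4 lower in untreated ApoE-/- mice than in B6 controls. In the vitamin E group, 3 were higher and 2 lower than in untreated ApoE-/- mice, and 1 higher and 4 lower than in B6 controls. Over all genes tested, 41.9%, 15.8% and 42.8% were called in these 3 comparisons, in this order. Bnip3 (a mitochondrial protein of autophagy and cell death) had 1803 and 1920 in untreated ApoE-/- mice, 2330 and 2314 in the vitamin E group, and 4614 and 4431 in B6 controls. Egln3 (a prolyl hydroxylase that senses oxygen) had 276 and 299, 450 and 496, and 572 and 629. Over the 10 genes, the untreated ApoE-/- arrays lay above the B6 arrays in 5 and below them in 5. The share of all genes with arrays apart in this way was not counted. The median log2 fold change in this comparison was 0.0059, with a range of -1.28 to 0.56. The part of hypoxia in the changes of the members was not tested.

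Among 10438 genes compared by Euclidean distance of centred log2 values over the 6 arrays, Smarcc1 (distance 0.087), Tapt1, Ambra1, Fam107b and Emb (0.121) were nearest to Pgam2, and S100a16 (0.050), Myom2 (a protein of the sarcomere, 0.067), Cstb, Smc5 and Zw10 (0.086) to Eno3.

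For the lists not described above, the shares of all genes called were 41.9% in untreated ApoE-/- mice against B6 controls and 15.8% between the ApoE-/- groups. The share was 42.8% in the vitamin E group against B6 controls. T cell and thymocyte genes were higher in 6 of 6 in untreated ApoE-/- and in the vitamin E group than in B6 controls. With vitamin E, 4 were higher than without. Of 7 genes of stratified epithelium, 6 were lower in untreated ApoE-/- mice than in B6 controls, 7 higher in the vitamin E group than in untreated ApoE-/- mice, and 3 higher in the vitamin E group than in B6 controls. For 5 brown adipocyte genes the counts of higher and lower were 2 and 1, 1 and 2, and 0 and 1 in untreated ApoE-/- mice against B6 controls, between the ApoE-/- groups and in the vitamin E group against B6 controls, for 4 genes of adipocytes in general 1 and 2, 0 and 1, and 1 and 2, for 5 endothelial genes 2 and 0, 0 and 0, and 1 and 1, and for the single red cell gene tested (Alas2) 1 and 0, 0 and 0, and 1 and 0.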
